A study of Mus musculus with 2 samples.

Results

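The insulin-like growth factor (IGF) family was described here by 10 genes, namely the binding proteins Igfbp2, Igfbp3, Igfbp4, Igfbp5, Igfbp6 and Igfbp7, the related Igfbpl1, the ligand Igf1 and the receptors Igf1r and Igf2r. They were chosen by name, and all 10 were among the 17408 genes of the table. The cells were mouse embryonic fibroblasts (MEFs) carrying the STEMCCA cassette, a doxycycline-inducible transgene for Oct4, Sox2, Klf4 and Myc, on their way to induced pluripotent stem cells (iPSCs), taken at day 16. They were cultured in embryonic stem cell medium with LIF, ascorbic acid and doxycycline, and were profiled unsorted with droplet 3′ RNA-seq in 2 libraries that the labels place in 1 group. By the study's methods, all cells carried a STEMCCA cassette and had the same treatment. Neither untreated MEFs nor established iPSCs were part of these data. The study names a pair of independent STEMCCA mouse systems, but the labels assign neither library to a system, so system and library cannot be told apart.

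IGF binding proteins are secreted proteins that hold IGF1 and IGF2 outside the cell, where they can prolong the life of the ligand or keep it from its receptor. Igf1r encodes the receptor tyrosine kinase that signals through IRS adaptors, PI3K and AKT, whereas Igf2r encodes the mannose 6-phosphate receptor that clears IGF2 by internalisation. Fibroblasts and smooth muscle cells are known sources of several binding proteins, and Igfbp2 is known from embryonic tissues.

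Replicate 1 held 3109 cells with a median of 15625 unique molecular identifiers (UMIs, each standing for 1 captured transcript), and replicate 2 held 3914 cells with a median of 14292. A total of 12 cell barcodes occurred in both libraries. Levels are given as mean UMIs per 10000 UMIs of a cell. Because the assay counts transcript 3′ ends and not reads over a gene's length, counts of different genes are set side by side only as captured transcripts. Cells were grouped into 15 clusters from genes that excluded the 10 members and the other IGF pathway genes, and 11 of the clusters had at least 30 cells in each library. Of these 11, the pluripotent-like cluster (146 and 391 cells in replicates 1 and 2) had 12 of 12 pluripotency markers raised by 2-fold or more over the remaining cells, the fibroblast-like cluster (249 and 168 cells) 11 of 12 fibroblast markers, and the myofibroblast-like cluster (352 and 256 cells) 8 of 8 contractile markers. The fibroblast-like cluster was led by Spp1, Mmp3, Mmp13, Col10a1 and Penk, of which Spp1, Mmp13 and Col10a1 are also known from cartilage and bone, and it had 2 of 5 chondrocyte or osteoblast markers raised. The myofibroblast-like cluster, led by Mylk and Prss23, had 11 of 12 fibroblast markers raised as well. A mitotic-like cluster and an S phase-like cluster were named in the same way. The other 6 stayed unnamed and are called by number and leading gene, as cluster 0 (Cib2), cluster 1 (Pcp4), cluster 3 (Rarres2), cluster 4 (Perp), cluster 8 (Mmp11) and cluster 10 (2810417H13Rik, a proliferation gene). Cluster 10 had 5 of 6 S phase markers and 5 of 7 mitotic markers raised.

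The promoters of 3 members are shown because their genes had the contrasts on which the results below turn. Igfbp2 and Igfbp5 are neighbours in the genome but were highest in different clusters. Igf1r is the receptor with the larger difference between the pluripotent-like cells and the other clusters. Each sequence is from RefSeq (GRCm38.p6), runs 5′ to 3′ on the gene's strand from 250 bases before to 50 bases after the annotated start, and has matches to the GC box GGGCGG on that strand or its reverse complement in capitals.
Igfbp2, chr1:72824230-72824529, plus strand: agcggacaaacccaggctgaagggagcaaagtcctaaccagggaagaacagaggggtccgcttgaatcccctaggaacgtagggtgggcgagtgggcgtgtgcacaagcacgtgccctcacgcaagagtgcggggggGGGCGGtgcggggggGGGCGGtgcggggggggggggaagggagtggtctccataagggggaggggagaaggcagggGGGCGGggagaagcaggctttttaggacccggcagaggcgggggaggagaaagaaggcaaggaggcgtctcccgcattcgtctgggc
Igfbp5, chr1:72874816-72875115, minus strand: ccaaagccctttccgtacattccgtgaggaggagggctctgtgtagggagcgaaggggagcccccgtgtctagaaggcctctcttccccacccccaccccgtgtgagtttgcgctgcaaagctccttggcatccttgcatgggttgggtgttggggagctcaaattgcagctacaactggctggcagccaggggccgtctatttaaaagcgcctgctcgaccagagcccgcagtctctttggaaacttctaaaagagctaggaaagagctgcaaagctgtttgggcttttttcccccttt
Igf1r, chr7:67952007-67952306, plus strand: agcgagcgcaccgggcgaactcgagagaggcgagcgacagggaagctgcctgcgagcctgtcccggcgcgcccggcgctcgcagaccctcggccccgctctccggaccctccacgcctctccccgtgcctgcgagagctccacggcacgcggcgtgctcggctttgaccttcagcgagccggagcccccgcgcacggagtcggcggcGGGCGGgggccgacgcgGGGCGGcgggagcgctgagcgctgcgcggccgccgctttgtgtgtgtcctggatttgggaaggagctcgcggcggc
The Igfbp2 window held 3 GC boxes, the Igf1r window 2 and the Igfbp5 window 0, where 35.7% of 32851 mouse promoter windows of the same length held at least 1. GC content was 67.0% for Igfbp2, 56.3% for Igfbp5 and 76.0% for Igf1r, against a median of 52.7% over all windows. The TATA motif TATAAA, present in 13.6% of windows, was found in those of Igfbp4 and Igfbp6 among the 9 members with an entry, and the octamer ATGCAAAT, present in 1.74% of windows, was found in none of them. Igfbp2 had 2 entries, of which the first is shown. The other, chr1:72825137-72825436, held 0 GC boxes and had a GC content of 57.3%. Motifs were searched on both strands, and no match overlapped one of another motif. A match describes the letters and is not evidence of binding.

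Igfbp2 lies on chromosome 1 from 72824503 to 72852474 on the plus strand (GRCm38, GENCODE M21), and Igfbp5 from 72857932 to 72874884 on the minus strand, so that their 3′ ends face each other across 5457 bases with 0 annotated genes between them. Igfbp2 was highest in the pluripotent-like cluster and Igfbp5 in the fibroblast-like cluster. In the fibroblast-like cluster Igfbp2 still had the higher level, at 2.14 and 2.52 in replicates 1 and 2 against 0.692 and 0.585 for Igfbp5. Over the 11 clusters their levels had a weak positive correlation (Pearson r = 0.28 and 0.18). The pluripotent-like cells held 2716 Igfbp2 UMIs against 1 Igfbp5 UMI in replicate 1, and 6769 against 4 in replicate 2.

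Igfbp2 was the binding protein of the pluripotent-like cells. Its level there was 6.42 in replicate 1 and 6.56 in replicate 2 (6.49 ± 0.097, SD, n = 2), the highest of the 11 clusters. The myofibroblast-like cluster came next with 3.75 and 2.95, and these ranges did not overlap. The fibroblast-like cluster followed at 2.14 and 2.52 and overlapped with cluster 10 (2810417H13Rik), at 3.05 and 1.42. The lowest level, 0.787 and 0.394, was in cluster 3 (Rarres2). In total the pluripotent-like cells had 3.68 times the mean level of all other cells in replicate 1 and 6.06 times in replicate 2.

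Igfbp2 was found in most pluripotent-like cells, whereas in the other 10 clusters the median cell had between 0 and 0.344 per 10000. The median pluripotent-like cell had 6.08 and 5.80 UMIs per 10000 in replicates 1 and 2, and the lowest 10% of cells still reached 2.66 and 2.71 at their upper edge. In the myofibroblast-like cluster the median cell had 0.313 and 0, while the highest 10% started at 12.3 and 8.51. The epithelial-like cluster, with 67 cells in replicate 1, had a median of 4.01. In the fibroblast-like cluster the median was 0 in both libraries, and 10.0% and 13.7% of cells were above 5 per 10000. Since pluripotent-like cells were deeper (medians of 28768 and 26097 UMIs), detection was compared after thinning every cell to 4500 UMIs. The share with Igfbp2 was then 87.0% in replicate 1 and 89.0% in replicate 2 for the pluripotent-like cluster, and 24.2% and 19.4% for the remaining cells. Without thinning the pluripotent-like shares were 97.3% and 99.0%.

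**Figure D1:**
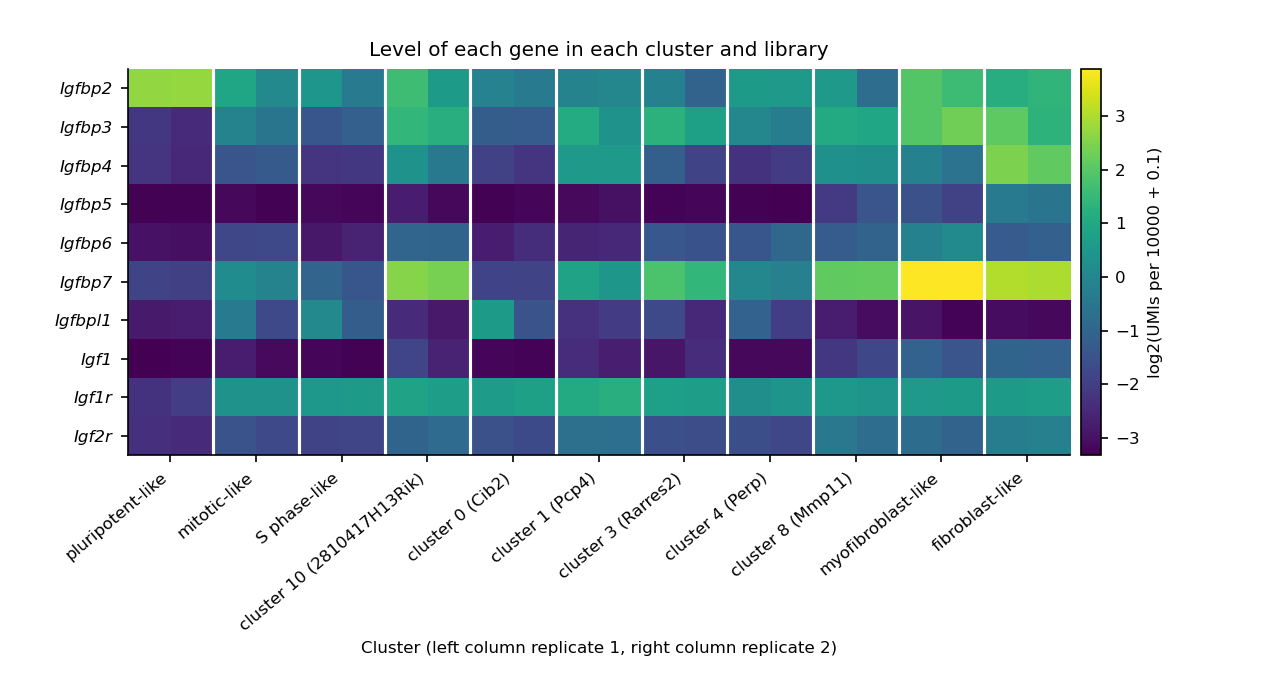
Mean level of the 10 genes (rows) in the 11 clusters with at least 30 cells per library, as log2(UMIs per 10000 + 0.1); each cluster has a column for replicate 1 and one for replicate 2. Igfbp2 is the bright row in the pluripotent-like cells, and Igfbp7 in the myofibroblast-like and fibroblast-like cells.

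Igfbp7, whose product is found in the matrix and binds IGFs weakly, had the highest level of any member, and its order over clusters was the most clearly resolved. It reached 14.6 in replicate 1 and 14.3 in replicate 2 in the myofibroblast-like cluster, 8.14 and 7.84 in the fibroblast-like cluster, 5.83 and 5.21 in cluster 10 (2810417H13Rik) and 4.21 and 4.32 in cluster 8 (Mmp11). At the low end stood cluster 0 (Cib2), at 0.175 and 0.178, and the pluripotent-like cells, at 0.177 and 0.155, which overlapped. Of the 10 steps between neighbours in this order, 8 had library ranges that did not overlap. After thinning, 94.0% and 95.3% of myofibroblast-like cells had an Igfbp7 UMI, against 6.85% and 5.63% of pluripotent-like cells.

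Igfbp3, the main carrier of IGFs in serum, and Igfbp4, a binding protein that is cut by the protease PAPP-A, were both high among fibroblast-like cells but differed elsewhere. Igfbp3 was at 3.78 and 4.83 in replicates 1 and 2 of the myofibroblast-like cluster and at 4.17 and 2.41 in the fibroblast-like cluster, and these overlapped. Igfbp4 was at 5.34 and 4.21 in the fibroblast-like cluster and only at 0.802 and 0.565 in the myofibroblast-like cluster. Its level next in order was 1.36 and 1.39 in cluster 1 (Pcp4), well apart from the fibroblast-like cells. Pluripotent-like cells had 0.126 and 0.0837 for Igfbp3 and 0.114 and 0.0771 for Igfbp4. Their Igfbp4 level overlapped with that of the S phase-like cluster, at 0.114 and 0.126. Cluster 4 (Perp), at 0.107 and 0.142, and cluster 0 (Cib2), at 0.160 and 0.116, were similarly low for Igfbp4.

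Igfbp6, which prefers IGF2, was highest in the myofibroblast-like cluster, at 0.792 and 0.959 in replicates 1 and 2, and lowest in the pluripotent-like cells, at 0.0285 and 0.0229. Among the clusters with fewer cells, cluster 12, led by Trf and Saa3, had a higher Igfbp6 level, at 5.02 in the 41 cells of replicate 2. Its 1 cell in replicate 1 had 9 UMIs.

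Igfbp5 was the rarest binding protein, with 357 and 273 UMIs in replicates 1 and 2, and few cells held most of them. The 1% of cells with the most Igfbp5 UMIs (32 and 40 cells) held 85.4% and 90.5% of all its UMIs, and the highest cell had 46 and 78. For Igfbp7 the corresponding 1% held 12.8% and 17.7%, and for Igf1r 5.33% and 5.33%. By cluster, Igfbp5 was highest in the fibroblast-like cells, at 0.692 and 0.585, where it was detected at 4500 UMIs in 8.03% and 3.57% of cells. Its level in a cluster is therefore that of a few cells.

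Igfbpl1, an IGFBP-related protein known from developing neural tissue, had a different order. It was highest in cluster 0 (Cib2) in replicate 1, at 1.41, and in the S phase-like cluster in replicate 2, at 0.335. In the clusters where Igfbp7 was highest it was lowest, at 0.0304 and 0.00570 in the myofibroblast-like and 0.0191 and 0.0103 in the fibroblast-like cells. Pluripotent-like cells had 0.0441 and 0.0501. Beyond the 11 clusters, the epithelial-like cluster (67 cells in replicate 1 and 4 in replicate 2) had 1.69 in replicate 1, with 230 UMIs. In a finer clustering (resolution 2), Igfbpl1 was among the 10 leading genes of a cluster with 120 and 97 cells. With the members kept in the clustering, Igfbpl1 led a cluster of 71 and 35 cells. The overlap of these cells with cluster 0 was not tested.

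Igfbpl1 was also the member that differed most between the libraries. In cluster 0 (Cib2) it stood at 1.41 in replicate 1 and 0.260 in replicate 2, a log2 difference of 2.07 with a pseudocount of 0.1, and only 1 of 7131 genes had a larger difference in that cluster. A difference of at least 1 on this scale within that cluster was found for 1 member and for 0.294% of all genes tested. Cells above 5 per 10000 made up 10.8% of cluster 0 in replicate 1 and 1.02% in replicate 2. Over the 11 clusters the median log2 difference between the libraries was 0.36 for Igfbpl1, 0.34 for Igfbp2, 0.27 for Igfbp3 and Igfbp4, and between -0.14 and 0.16 for the other 6 members. None of the 8 members tested reached 0.5, a size reached by 0.659% of all genes. With 1 library on each side no test of this difference was possible.

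**Figure D2:**
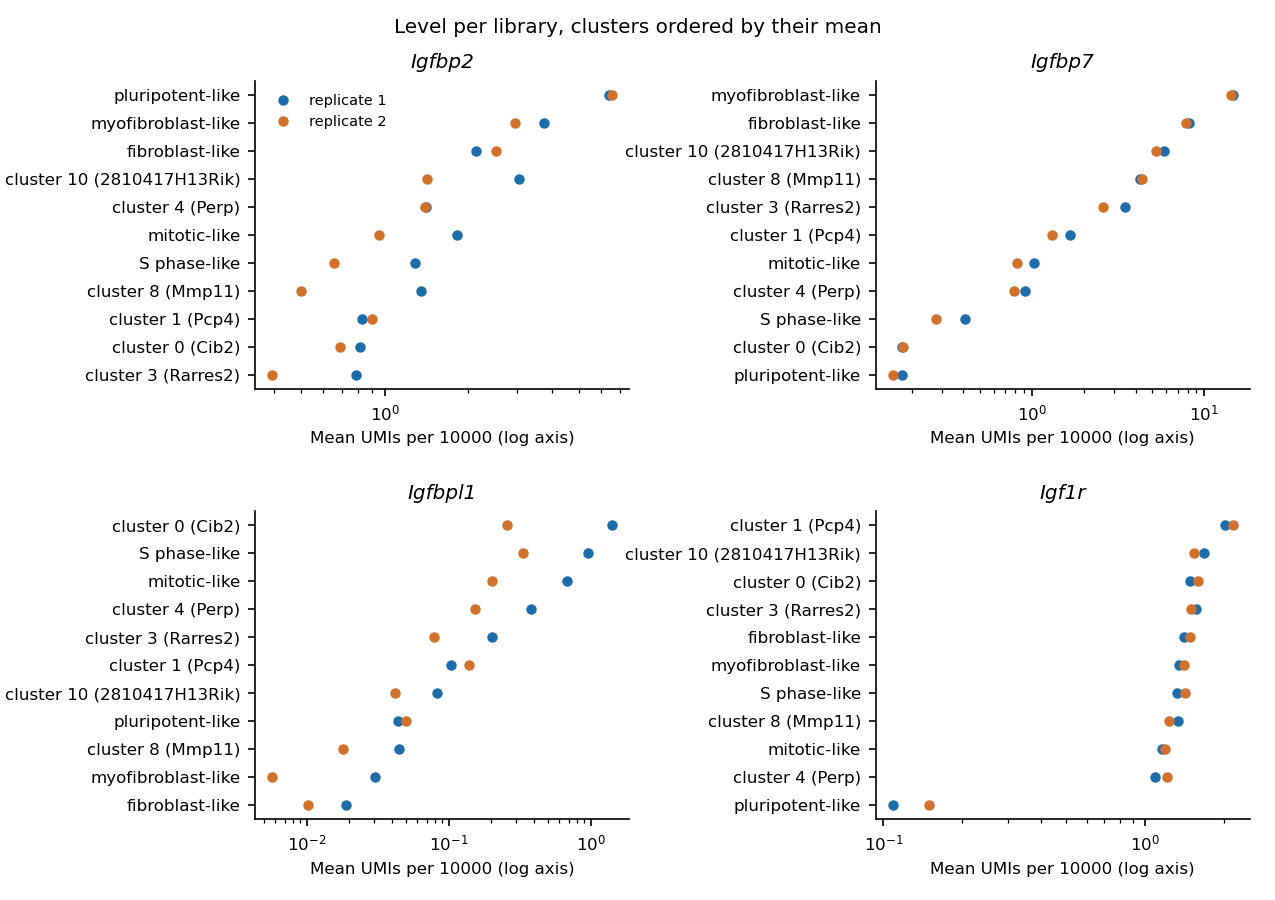
Mean UMIs per 10000 (log axis) of Igfbp2, Igfbp7, Igfbpl1 and Igf1r in each cluster, with replicate 1 in blue and replicate 2 in orange and clusters ordered by their mean. The libraries lie close together for Igfbp7 and Igf1r and far apart for Igfbpl1, as in cluster 0 (1.41 against 0.260), and pluripotent-like cells stand alone at the low end for Igf1r.

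Igf1, the ligand, was scarce, with 497 and 374 UMIs in replicates 1 and 2. It was highest in the fibroblast-like cluster, at 0.395 and 0.383, and in the myofibroblast-like cluster, at 0.378 and 0.272. The pluripotent-like cells of replicate 1 had 0 UMIs, which allows a level of up to 0.00709 (3 counts over the cluster), and those of replicate 2 had 5 UMIs. The macrophage-like cluster, with only 4 and 9 cells, had 1.22 and 3.01, and Igf1 was detected in 66.7% of its 9 cells in replicate 2 at 4500 UMIs.

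The receptors fell into 2 patterns. Igf1r was at a similar level in the 10 clusters other than the pluripotent-like one that had at least 30 cells per library. There it ran from 1.09 in cluster 4 (Perp) to 2.16 in cluster 1 (Pcp4). Its level was lower in the epithelial-like cells, which were too few in replicate 2 to be among these clusters. In pluripotent-like cells it was at 0.108 in replicate 1 and 0.150 in replicate 2, which was 7.66% and 9.82% of the mean over all other cells. At 4500 UMIs its share of positive cells was 2.74% and 6.14% in the pluripotent-like cluster against 43.1% and 46.9% elsewhere. Igf2r was graded, from 0.717 and 0.775 in the fibroblast-like cluster to 0.0961 and 0.0823 in the pluripotent-like cells, which were 3.73-fold and 3.99-fold below the other cells. In pluripotent-like cells the levels were thus low for both receptors, and the detection of Igf2r at 4500 UMIs was 5.48% and 3.84%.

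The difference between pluripotent-like cells and the other clusters was tested for every gene with a mean of at least 0.1 per 10000, using limma on log2(level + 0.1) over 22 profiles of 11 clusters in 2 libraries. A total of 8 members passed that limit, and Igfbp5 and Igf1 did not. The clusters were drawn from other genes of the same cells, so an adjusted p is not an independent test of the grouping. It sets a difference against the spread between the libraries within clusters, after a library difference shared by all clusters is removed. An exact test over 2 libraries could not go below p = 0.5.

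Against the mean of the 10 other clusters, Igfbp2 was higher in pluripotent-like cells, by 2.29 ± 0.22 (SE) on the log2 scale, with a limma adjusted p of 1.9e-08. Among all 7131 genes tested, 34.3% were higher. The other 7 members tested were lower, where 47.6% of all genes were lower. The log2 differences were -2.98 for Igfbp7 (SE 0.085), -2.80 for Igfbp3 (SE 0.15), -2.76 for Igf1r (SE 0.070), -1.71 for Igfbp4 (SE 0.14), -1.44 for Igfbp6 (SE 0.096) and -1.23 for Igf2r (SE 0.084), with limma adjusted p-values of at most 3.9e-09. Igfbpl1 had -0.80 (SE 0.28, limma adjusted p = 0.015), and this call was lost with a pseudocount of 1 (-0.22, adjusted p = 0.15), without the filter on low values (adjusted p = 0.064) and without a library term (adjusted p = 0.072). The median over the 8 members was -1.57, and that over all genes -0.14.

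Against the fibroblast-like cluster alone, Igfbp2 was again higher, by 1.44 ± 0.29 (SE, limma adjusted p = 0.0002), among 33.7% of all genes, and 6 members were lower, among 47.3%. Igfbp7 (-4.93), Igfbp4 (-4.64) and Igfbp3 (-4.01) had the largest differences of the members. Igfbpl1 had 0.36 ± 0.38 (SE, limma adjusted p = 0.39). These comparisons share the pluripotent-like profiles. Over all clusters, 8 of 8 members varied, as did 95.9% of all genes. Igfbp7 had rank 5 of the 7131 genes by the F value of this test, at 603. The median F of the 8 members was 96.0 against 16.0 for all genes. Members differed widely, with Igfbp2 at 23.2 (rank 2662) and Igfbpl1 at 13.7 (rank 3949), the latter below the median of all genes.

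**Figure D3:**
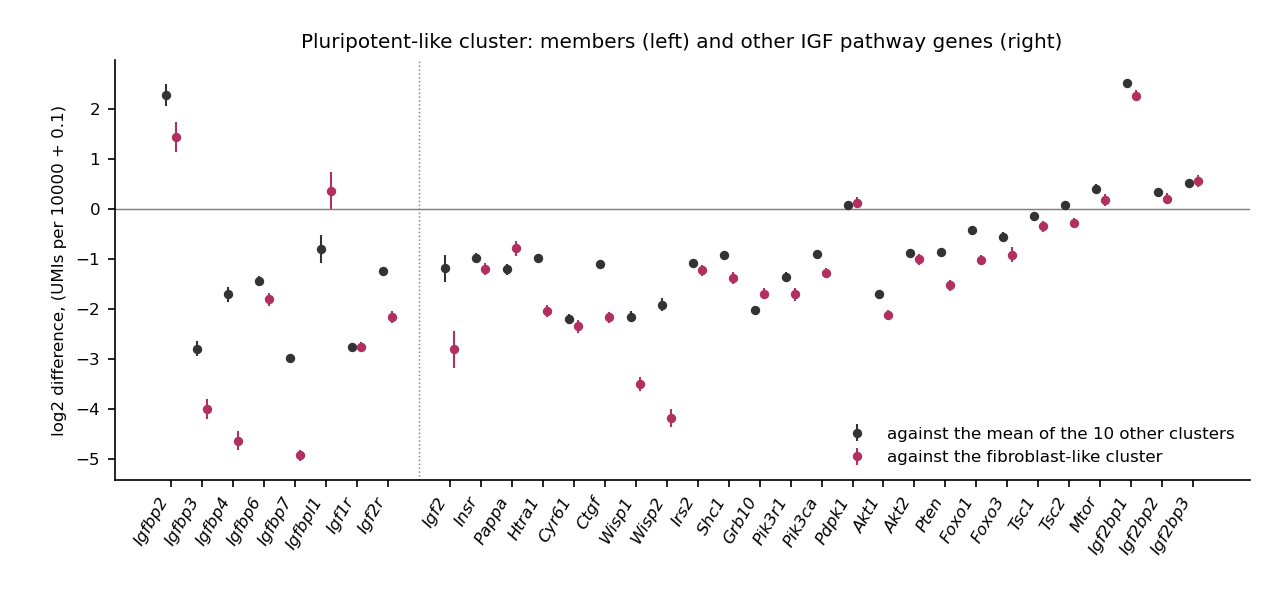
Log2 difference, on the scale of UMIs per 10000 + 0.1, of the pluripotent-like cluster from the mean of the 10 other clusters (black) and from the fibroblast-like cluster (red), for the 8 members tested (left of the dotted line) and 25 other IGF pathway genes; bars are standard errors. Igfbp2 and Igf2bp1 are the points far above 0, at 2.29 and 2.52 in black, among mostly lower genes.

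As values to set beside the low levels in pluripotent-like cells, the collagens Col1a1, Col1a2 and Col3a1 and the matrix gene Sparc were measured, which are abundant fibroblast transcripts. The pluripotent-like cells had 2.17% and 1.98% of the fibroblast-like level of Igfbp7 in replicates 1 and 2, 2.14% and 1.83% for Igfbp4 and 3.02% and 3.48% for Igfbp3. The same figures were 2.17% and 1.69% for Col1a1, 2.09% and 2.39% for Col1a2 and 0.765% and 0.963% for Col3a1. With the fibroblast-like cluster as reference, the value for Igfbp3 was above those of the 3 collagens in both libraries. Igf1r was at 7.69% and 10.0% of the fibroblast-like level, Igf2r at 13.4% and 10.6% and Sparc at 5.38% and 6.35%. Relative to all other cells, where the collagens are less concentrated, Igf1r was at 7.66% and 9.82%. Col1a1 was at 8.49% and 9.65% on this scale and Col1a2 at 6.13% and 8.34%. Col3a1 was below Igf1r in both libraries, at 4.32% and 5.998%, and Sparc above it, at 13.5% and 20.6%. The part of free RNA in the low levels of pluripotent-like cells was not tested.

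The makeup of the binding-protein transcripts changed from cluster to cluster. All 7 binding-protein genes together had 6.91 and 6.95 UMIs per 10000 in pluripotent-like cells of replicates 1 and 2, and Igfbp2 made up 92.7% and 94.1% of them. The myofibroblast-like cells had 24.0 and 23.8 in total, of which Igfbp7 made up 60.9% and 61.7%. In the fibroblast-like cells, with 20.8 and 17.9 in total, Igfbp7 took 41.0% and 45.1% and Igfbp4 25.4% and 21.2%. The lowest totals were in cluster 0 (Cib2), at 2.94 and 1.67, where Igfbpl1 took 45.1% in replicate 1 but 14.2% in replicate 2, and in the S phase-like cluster, at 3.09 and 1.83. The total in pluripotent-like cells was thus above that of several somatic clusters, although 5 of the 7 genes were lowest there or next to lowest.

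**Figure D4:**
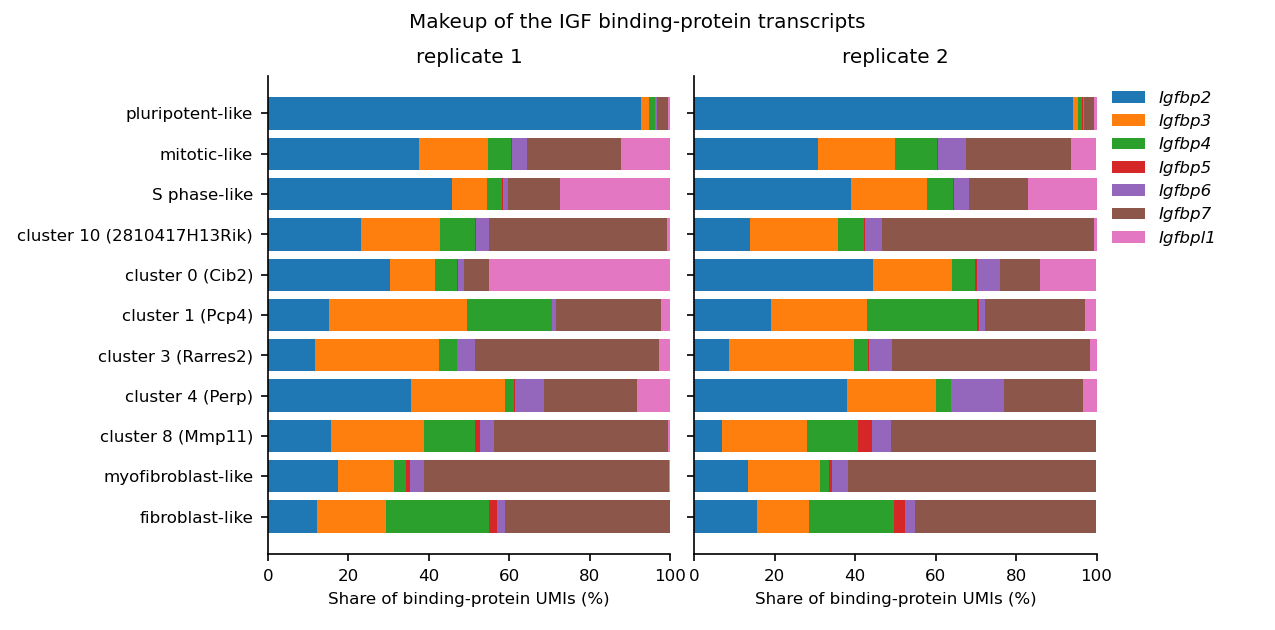
Share of the UMIs of the 7 binding-protein genes that each gene contributed (percent), per cluster, with replicate 1 on the left and replicate 2 on the right. Igfbp2 (blue) fills 92.7% and 94.1% of the pluripotent-like bars, and Igfbp7 (brown) most of the myofibroblast-like bars.

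The number of binding-protein genes found in a cell differed likewise between clusters. At 4500 UMIs per cell, a pluripotent-like cell had 1.07 and 1.03 binding-protein genes detected on average in replicates 1 and 2, and 73.3% and 79.3% of these cells had exactly 1. A fibroblast-like cell had 2.47 and 2.34, and a myofibroblast-like cell 2.34 and 2.42. In cluster 0 (Cib2) 50.7% and 60.5% of cells had none.

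Which members occurred in the same cell was then compared over all cells of a library and within clusters, as an odds ratio of detecting both at 4500 UMIs. An odds ratio above 1 means that the genes were found together more often than their separate shares give. Of 45 pairs, 27 had at least 30 cells with both genes in each library. Over all cells 17 pairs were above 1 in both libraries and 6 below, and within clusters 14 were above and 7 below. Pairs above 2 in both libraries numbered 6 over all cells and 1 within clusters.

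That pair was Igfbp2 and Igfbpl1, with an odds ratio within clusters of 2.51 in replicate 1 and 3.01 in replicate 2, and of 2.32 and 1.88 over all cells. There were 120 and 69 cells with both. In cluster 0 (Cib2) the odds ratio was 4.17 and 4.92, from 25 and 22 cells with both, and in the mitotic-like cluster 3.43 and 2.75, from 29 and 14 cells. Across cluster means the same genes ran in opposite directions (Pearson r = -0.53 and -0.46 over 11 clusters in replicates 1 and 2).

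For several pairs of genes that were high in fibroblast-like or myofibroblast-like cells, the odds ratio was closer to 1 within clusters. Igfbp7 and Igf1 had an odds ratio of 5.18 and 4.48 over all cells and of 1.16 and 1.20 within clusters. Igfbp3 and Igfbp7 went from 3.03 and 3.80 to 1.41 and 1.67, and Igfbp6 and Igfbp7 from 3.35 and 3.66 to 1.90 and 1.82. Igfbp2 and Igfbp3 were found together less often, at 0.644 and 0.604 over all cells and 0.811 and 0.831 within clusters. The ligand and its receptor, Igf1 and Igf1r, had 1.28 and 0.938 within clusters, on different sides of 1. Cells are not replicates, and these ratios carry no test.

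**Figure D5:**
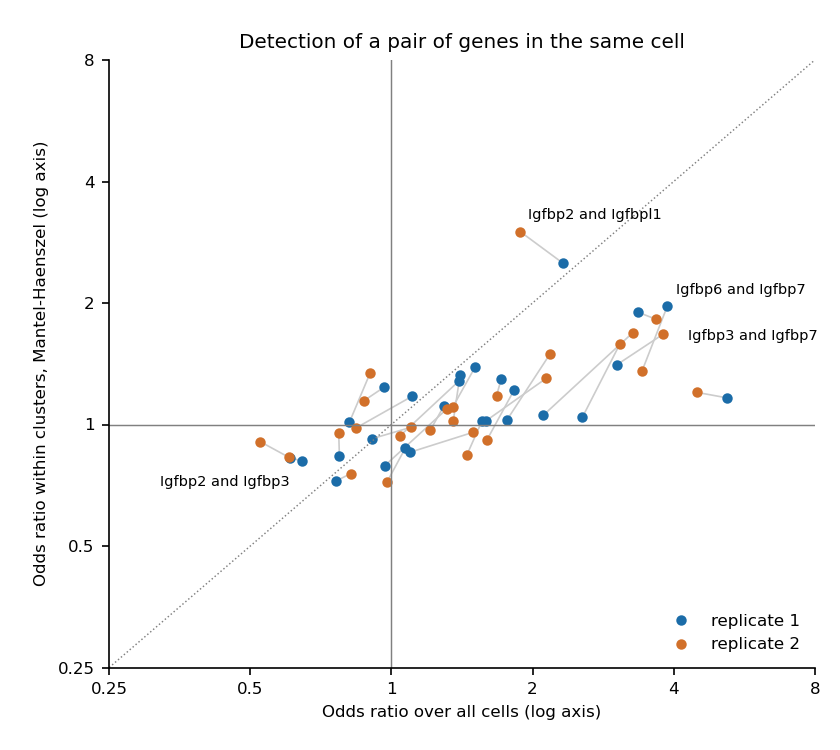
Odds ratio of detecting both genes of a pair in a cell, over all cells (horizontal, log axis) and within clusters (vertical, log axis), for 27 pairs in replicate 1 (blue) and replicate 2 (orange), joined by grey lines. Most pairs lie below the dotted line of equality to the right, and Igfbp2 with Igfbpl1 stands above it at 2.51 and 3.01.

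Across the 11 clusters, the members' patterns were compared as a description, since the clusters share libraries and neighbouring states. Igfbp3 followed Igfbp7 most closely (Pearson r = 0.96 and 0.97 in replicates 1 and 2), then Igfbp4 followed Igf2r (0.91 and 0.95), Igfbp7 followed Igf1 (0.90 and 0.89) and Igfbp5 followed Igf1 (0.89 and 0.92). Igfbp2 correlated with no other binding protein above 0.28 and had a negative correlation with Igf1r (-0.68 and -0.66). Igf1r was at 0.108 and 0.150 in the pluripotent-like cluster, where Igfbp2 was highest, and at 1.09 or more in every other of the 11 clusters. The correlation without the pluripotent-like cluster was not tested. Among all genes tested, those most like Igfbp2 were Hmgcs1, an enzyme of cholesterol synthesis (0.93 and 0.91), Spats2 and Golga3. Those most like Igfbp7 were the interleukin receptor gene Il4ra (0.99 and 0.99), the matrix gene Fbln2 and Fhl2. Col1a2, a collagen chain, was among the 3 most like Igfbp3 (0.98 and 0.97), Mmp2 among those most like Igf2r (0.98 and 0.96), and Smo, a Hedgehog receptor component, was most like Igf1r (0.97 and 0.98). For Igfbpl1 the nearest gene was Gbas (0.94 and 0.94).

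Of 37 other genes of the IGF pathway in a list of ligands, carriers, proteases, CCN proteins, adaptors, kinases and Igf2 mRNA binding proteins, 34 were in the table and 25 were tested. In pluripotent-like cells against the mean of the other clusters, 4 were higher, 18 lower and 3 not called, where 34.3% of all genes were higher and 47.6% lower, and the median was -0.93 against -0.14 over all genes. The 4 higher genes were Mtor, the kinase of the TOR complexes (0.41), and the mRNA binding proteins Igf2bp1 (2.52), Igf2bp2 (0.34) and Igf2bp3 (0.51). Igf2bp1 was at 1.22 and 0.994 UMIs per 10000 in pluripotent-like cells and at 0.117 and 0.0962 in the other cells.

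The ligand Igf2 was lower (-1.18, SE 0.27, limma adjusted p = 0.00055), at 0.0594 and 0.0448 per 10000 in pluripotent-like cells and 0.607 and 1.51 in the fibroblast-like cluster. Also lower were 3 of 3 adaptors tested (Grb10 -2.02, Irs2 -1.08, Shc1 -0.93), 4 of 4 CCN proteins tested (Cyr61 -2.20, Wisp1 -2.15, Wisp2 -1.91, Ctgf -1.10) and both proteases tested (Pappa -1.21, Htra1 -0.98). In this comparison, with the mean of the other clusters, 47.6% of all genes were lower. Akt1, the kinase downstream of PI3K, was lower (-1.71), whereas Pdpk1 (0.08), Tsc1 (-0.13) and Tsc2 (0.09) were not called. Against the fibroblast-like cluster 2 of the 25 were higher, 20 lower and 3 not called, where 33.7% of all genes were higher and 47.3% lower. Igfals, the acid-labile subunit of the serum IGF complex, was below the limit for the test, with 12 and 34 UMIs in the pluripotent-like cells of replicates 1 and 2 and 8 and 8 UMIs in all other cells.

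Igfbp7 overlaps Polr2b and Gm34648 on the opposite strand, Igf1 overlaps Igf1os and Igf2r overlaps Airn. The use of strand in counting was not given in the sources, so counts of these 3 members could include reads of their partners.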

How the data were processed

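Droplet 3′ libraries (Chromium V2) of day 16 cells were processed by the authors with Cell Ranger 2.1.1 and Seurat against mm10, per the labels and the study's methods, which keep cells by their number of detected genes and their mitochondrial share. The cells in the table had between 1508 and 5987 genes and at most 8.99% mitochondrial UMIs. The deposited values were natural log (ln) values of 1 plus UMIs per 10000, as normalised by the authors. Brought back to linear values, cells summed to 10000 each, and 100% of values were whole multiples of that of 1 UMI within 0.01, so UMIs were recovered (4753 to 60990 per cell, 54145377 and 64654306 per library). No doublet caller was run, and the sources do not state whether doublets had been removed.

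Cells of both libraries were clustered together (scanpy 1.11.5, leidenalg 0.10.2, 2000 variable genes, 30 components, resolution 1) with 651 genes held out, namely sex-chromosome genes, reprogramming factors, the members and the IGF pathway list. For naming, the class with most of its markers raised 2-fold or more (as a share, over 50% and at least 3 markers) was given to a cluster, unless its 10 leading genes held more markers of another class. This rule was chosen with the clusters in view, and names may differ from those of the study. The replicates are 2 libraries. The p-values set a difference against the spread between them within clusters that the library term leaves, which may be technical. Profiles were mean linear values per cluster and library. They were fitted with limma 3.58.1 (R 4.3.3) on log2(value + 0.1) with cluster and library terms and Benjamini-Hochberg adjustment over 7131 genes with a mean of at least 0.1, at a threshold of 0.05. Such log2 differences understate the change of low genes. The fit was tested on simulated data in which clusters differed only by changes put into the pluripotent-like profiles, and libraries only by depth. These data are less simple, so the error rates of the fit here were not tested. Detection shares and odds ratios (Mantel-Haenszel within clusters) used cells thinned to 4500 UMIs, and no cell was lost. Intervals and floors cover counting error only. Genes were named by fixed lists, and the 3 most alike per member by the lower correlation of the libraries. The members and lists were chosen with earlier results of these data known. Alternatives changed the pseudocount, filter, profile, resolution, variable genes, held-out genes, library term, cells, depth and weights.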

Additional observations from a re-analysis of the deposited data

How the results depend on the processing

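Of 202 recomputed member differences, 198 kept their direction and, where a test was possible, their side of the threshold. The 4 others concerned Igfbpl1. For 32 of the 202, each from leaving out 1 library, no test was possible and only the value was compared. Without a filter on low values 10084 genes were called against the mean of the other clusters, 9981 against the fibroblast-like cluster and 11630 over all clusters, where the numbers were 5835, 5780 and 6840 with the filter. With a mean of at least 0.5 they were 1893, 1915 and 2179, members lower than the other clusters went from 7 to 4, and members varying over clusters from 8 to 5, because fewer genes and members were tested. With a pseudocount of 0.01, 2 members rather than 1 were higher than in fibroblast-like cells, the second being Igfbpl1 (1.23, limma adjusted p = 0.032), and the cause was not tested. The median detection share over members and clusters was 10.9% at 4500 UMIs, 8.40% at 3000 and 27.7% without thinning, as fewer or more UMIs were read. Of the 24 genes most like a member, 11 were shared with the list at a pseudocount of 1 and 11 with that at resolution 2. Leaving out 1 library gave an Igfbp2 level in pluripotent-like cells of 6.42 to 6.56, and 15 to 19 pairs with an odds ratio above 1 within clusters, against 14 for both. At resolution 0.5 no cluster was named fibroblast-like, so that comparison could not be fitted. No paired analysis was possible because the labels give 1 group, and the library term took its place. Depth limits Igfbp5 and Igf1 most, with fewer than 500 UMIs per library.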

Other observations

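Some of the highest member levels were found in clusters with fewer than 30 cells in a library. The epithelial-like cluster had an Igfbp2 level of 5.18 per 10000 in the 67 cells of replicate 1 and 4.72 in the 4 cells of replicate 2. There Igfbp2 made up 73.6% and Igfbpl1 22.1% of the binding-protein UMIs of replicate 1, and Igf1r was at 0.540. The macrophage-like cells had Igfbp4 at 1.09 in the 4 cells of replicate 1 and 4.12 in the 9 of replicate 2, and 6 UMIs of Igf1r in total. In cluster 12, led by Trf and Saa3, the 41 cells of replicate 2 had Igfbp7 at 7.80, Igfbp6 at 5.02 and Igfbp4 at 2.98, and 2.61 binding-protein genes were detected per cell at 4500 UMIs. These values have at most 1 library with enough cells and carry no comparison.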
